A study of Mus musculus with 4 samples.

Results

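The proteasome is the protease complex that degrades ubiquitin-tagged proteins, and its subunit genes were followed in gonadal white adipose tissue (WAT) of mice with and without FSP27. Members were all probe sets of the arrays with a single annotated symbol that starts with Psma, Psmb, Psmc, Psmd, Psme, Psmf or Psmg followed by a number. This symbol rule found 85 probe sets of 48 genes among the 12393 genes with a single-symbol probe set. Male C57BL/6J mice, 3 months old and fed normal chow, were either Fsp27 knockout (Fsp27-null) or wild-type. Total RNA from the gonadal WAT of 5 mice of each genotype was pooled, and each pool was hybridised in duplicate, giving 4 Affymetrix arrays. The duplicates are repeat hybridizations of a pool, so that p-values measure the spread between arrays and not between mice.

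The core of the proteasome is a barrel of stacked alpha and beta rings, in which the beta subunits PSMB5, PSMB6 and PSMB7 carry the protease sites. The regulatory cap at its ends holds a ring of ATPases (PSMC), which unfold substrates, and non-ATPase subunits (PSMD), which bind and remove ubiquitin. In cells exposed to interferon-gamma, and in many immune cells without it, PSMB8, PSMB9 and PSMB10 replace PSMB5, PSMB6 and PSMB7 to form the immunoproteasome, and the activator of PSME1 and PSME2 can take the place of the cap, which favours peptides for MHC class I. In adipose tissue the transcription factor NFE2L1 is known to drive proteasome genes, through antioxidant response elements.

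In the WAT of FSP27-deficient mice, 4 genes of the core, Psma1, Psmb3, Psmb5 and Psmb7, were called higher. They make 8.51% of the 47 proteasome genes tested, beside 5.79% of all genes. No gene of the cap or of the immunoproteasome passed the test, but Psmd4 of the cap came near it (adjusted p = 0.054 from limma). The rise of Psma1 rests on its brightest probe set, and the call of Psmb3 depended on the arrays. All 4 calls were lost when limma's spread was not allowed to follow the signal. The 4 called genes rose between 1.64-fold and 2.62-fold. The 4 measured immunoproteasome genes had log2 ratios between -0.01 and -1.13. Each inducible catalytic subunit lay lower against its constitutive counterpart on both FSP27-deficient arrays than on both wild-type arrays. The rises of Psmb5 and Psmb7 are part of this difference in their pairs. Promoters of 3 core genes that rose (Psma1, Psmb3 and Psmb5) and of 3 immunoproteasome genes are given here as the stretches searched for motifs of interferon and antioxidant response. They run from 250 bases before to 50 bases after the gene start in the RefSeq annotation of GRCm38.p6, in the direction of the gene, and capitals mark matches to the motifs searched. RefSeq promoter windows were matched by symbol for 40 of the 48 genes, and Psmb7 was not searched.
Psma1, chr7:114276067-114276366, minus strand: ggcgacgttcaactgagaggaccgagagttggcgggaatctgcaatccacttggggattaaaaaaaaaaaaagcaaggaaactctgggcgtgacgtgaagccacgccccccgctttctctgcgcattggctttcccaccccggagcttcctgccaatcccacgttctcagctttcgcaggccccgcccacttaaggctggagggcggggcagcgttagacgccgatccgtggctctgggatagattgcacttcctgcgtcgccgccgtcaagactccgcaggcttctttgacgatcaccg
Psmb3, chr11:97703184-97703483, plus strand: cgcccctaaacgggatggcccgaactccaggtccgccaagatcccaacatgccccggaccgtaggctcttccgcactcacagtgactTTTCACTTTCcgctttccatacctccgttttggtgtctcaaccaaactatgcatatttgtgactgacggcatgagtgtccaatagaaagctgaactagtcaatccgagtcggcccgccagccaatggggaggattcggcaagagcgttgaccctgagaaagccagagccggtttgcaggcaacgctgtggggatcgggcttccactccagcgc
Psmb5, chr14:54617946-54618245, minus strand: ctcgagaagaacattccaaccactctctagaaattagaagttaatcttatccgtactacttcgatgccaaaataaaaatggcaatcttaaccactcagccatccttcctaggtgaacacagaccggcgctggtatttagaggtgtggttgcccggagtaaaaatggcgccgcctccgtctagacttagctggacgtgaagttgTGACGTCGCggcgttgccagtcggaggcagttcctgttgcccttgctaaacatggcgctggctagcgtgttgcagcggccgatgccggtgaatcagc
Psmb8, chr17:34197945-34198244, plus strand: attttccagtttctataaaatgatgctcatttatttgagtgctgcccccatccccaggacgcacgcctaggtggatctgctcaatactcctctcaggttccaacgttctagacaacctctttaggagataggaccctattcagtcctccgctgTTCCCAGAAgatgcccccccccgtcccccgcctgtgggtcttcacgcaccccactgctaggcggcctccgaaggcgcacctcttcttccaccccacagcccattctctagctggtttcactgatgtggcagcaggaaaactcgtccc
Psmb9, chr17:34187281-34187580, minus strand: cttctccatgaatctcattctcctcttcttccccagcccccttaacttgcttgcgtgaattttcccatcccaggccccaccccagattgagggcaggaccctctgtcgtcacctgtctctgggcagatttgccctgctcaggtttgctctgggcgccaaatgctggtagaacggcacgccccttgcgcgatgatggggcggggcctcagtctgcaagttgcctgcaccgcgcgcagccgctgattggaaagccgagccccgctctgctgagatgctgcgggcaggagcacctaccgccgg
Psme1, chr14:55578244-55578543, plus strand: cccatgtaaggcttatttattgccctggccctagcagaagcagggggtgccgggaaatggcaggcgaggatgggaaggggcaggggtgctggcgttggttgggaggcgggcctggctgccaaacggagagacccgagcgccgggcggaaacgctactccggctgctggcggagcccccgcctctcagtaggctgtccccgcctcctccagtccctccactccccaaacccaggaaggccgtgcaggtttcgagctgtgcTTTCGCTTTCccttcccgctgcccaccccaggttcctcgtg

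The motifs searched on both strands were the antioxidant response element core TGACNNNGC, the interferon-stimulated response element (GAAA, any 2 bases, GAAA) and the gamma-activated site TTCNNNGAA, which reads the same on both strands. Of 32851 promoter windows in all, 12.4% held the first, 3.44% the second and 8.30% the last. Psmb5 held an antioxidant response element core, TGACGTCGC, at position -47 from the gene start, and Psmb6 held another, TGACGGAGC, at position -9. Psmb3 held the reverse strand of an interferon-stimulated response element at -163, Psme1 held another at 10 within the transcribed part, and Psmb8 held a gamma-activated site, TTCCCAGAA, at -97. The windows of Psma1, Psmb9 and Psmb10 held none of these letters. Over the 40 members with a window, 6 held the first motif, 5 the second and 3 the last. A match describes the sequence and is not evidence of binding.

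Signals are those of the Affymetrix GCOS software on a linear scale. Each gene was read from its brightest probe set, and those 8522 genes whose signals averaged 100 or more entered the test, limma with Benjamini-Hochberg adjustment over all of them. The log2 ratio, or log2 fold change, is FSP27-deficient minus wild-type on log2(signal + 16), given with its standard error (SE) over 2 arrays of each genotype. Of the 48 members 47 passed the filter on low signals, and Psma8, a subunit of the testis, did not, with signals of 9.78 and 8.98 (FSP27-deficient) and 22.4 and 75.7 (wild-type). Cidec, the gene of FSP27, gave 8564 and 8949 against 20491 and 18255 (log2 ratio -1.14, adjusted p = 5.7e-04), which does not check the genotype by itself, as it was not known whether the probe set lies in the deleted part. Adipocyte markers were bright (summed signals of 180083 and 194121 in FSP27-deficient against 162726 and 181175 in wild-type WAT over 8 genes). Of these 6 had a positive log2 ratio with 0 called higher, and 2, Lep and Cidec, were called lower. Macrophage markers were lower in FSP27-deficient WAT (summed signals of 7966 and 9275 against 21386 and 19906 over 12 genes, 7 of 11 tested past the threshold), as were fibroblast markers (22365 and 24498 against 42134 and 40344 over 6 genes, 4 past the threshold) and mesothelial markers (1009.7 and 731 against 2761 and 2983 over 3 genes, 2 past the threshold). Endothelial markers summed to 4172 and 4517 against 5487 and 6237 over 6 genes, with 1 lower. Of brown fat markers 4 of 5 tested were higher, with sums of 19481 and 24035 against 1365 and 977 over 6 genes. Among all genes tested, 5.79% were called higher and 6.51% lower. In RNA of whole tissue, fewer cells of a type and less RNA per cell cannot be told apart.

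Over the whole group, limma called 4 of 47 proteasome genes higher and 0 lower (adjusted p under 0.05), beside a background of 5.79% of all genes called higher and 6.51% called lower. At an unadjusted p under 0.05 from limma there were 9 higher and 2 lower proteasome genes. Both directions together made 23.4% of those tested beside 25.3% of all genes, no more than the background. The shares of all genes by direction at this p were not taken. The median log2 ratio of the 47 genes was 0.24 and that of all genes tested -0.08, and 74.5% of the proteasome genes had a positive value against 43.1% of all genes. The 2 arrays of FSP27-deficient WAT were each above the 2 of wild-type WAT for 23 of the 47 genes (48.9%, background 22.7%) and below them for 5 (10.6%, background 31.4%). By a fold criterion, a difference of 0.5 or more between the log2 mean signals with both duplicate pairs pointing the same way, 7 proteasome genes were higher (14.9%, background 14.4%) and 3 were lower (6.38%, background 20.6%). The share upward was near the background and the share downward below it with all 4 arrays, but the counts moved when an array was left out. Only 1 duplicate pair then checks the direction, and the mean of 1 genotype becomes the value of a single array. Psmb6, for instance, already had both pairs upward with all 4 arrays, at a ratio of means of 1.32. Its wild-type mean was 2584, and without wild-type replicate 2 it is the 1993 of replicate 1. The background was not counted in the settings with an array left out. The 4 calls were lost when limma's spread was not allowed to follow the signal (0 called, 6 or 12.8% at an unadjusted p under 0.05, and adjusted p of 0.074 to 0.17 for the 4). This loss was general, as 1 of all 8522 genes was then called and 21.8% had an unadjusted p under 0.05. Proteasome genes gave a median mean signal of 2008 against 438 over all genes tested.

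**Figure D1:**
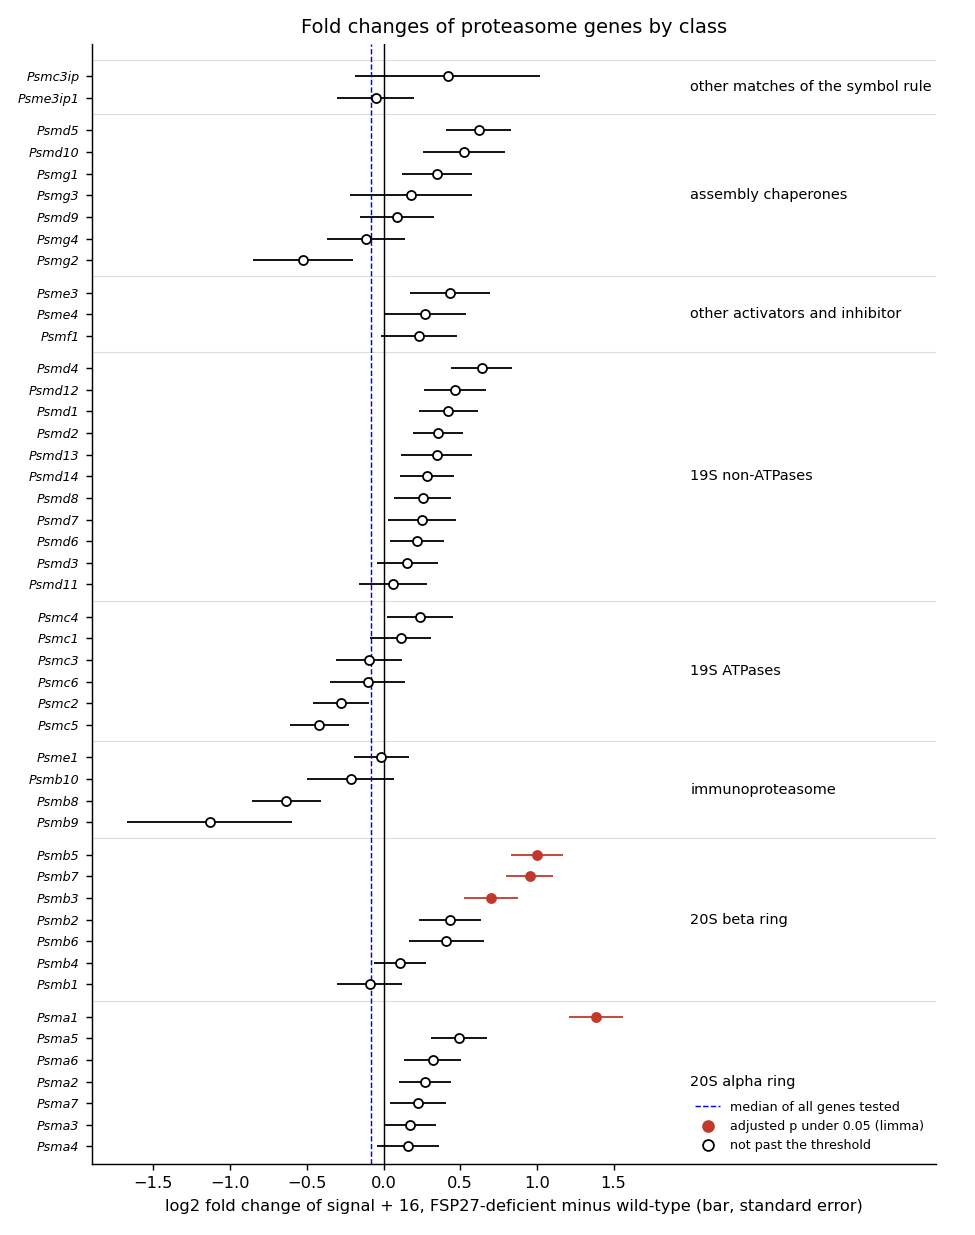
log2 ratio (FSP27-deficient minus wild-type, on signal + 16) with its standard error (SE) from limma for the 47 proteasome genes tested, sorted within 8 classes, with the dashed line at the median of all genes tested (-0.08). The 4 filled red points past the adjusted p of 0.05, at 0.70 to 1.39, all lie in the core rings, and all 4 immunoproteasome genes lie below 0.

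In the alpha ring, which forms the gate of the core and docks the cap, all 7 genes had a positive log2 ratio, beside 43.1% of all genes. Of the 7 alpha genes 1 was called higher, beside 5.79% of all genes. Psma1 gave signals of 7452 and 6499.6 (FSP27-deficient) and 2407 and 2927 (wild-type). Both FSP27-deficient arrays were more than 2-fold above either wild-type array. Psma1 rose from 2667 ± 368 to 6976 ± 673 (SD, n = 2 arrays each), with log2 ratio 1.39, SE 0.18, adjusted p = 4.2e-04 from limma. Its other probe sets were dim, 1 with 160.5 and 109 against 102 and 71.5 (log2 ratio 0.55, adjusted p = 0.65 over all probe sets) and 1 with 3.64 and 5.35 against 3.84 and 92.7. Over the mean of the 3 probe sets the log2 ratio of Psma1 was 0.25, adjusted p = 0.70 from limma, so that its rise rests on the brightest probe set.

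Psma5 was the next of the alpha genes, with signals of 2688 and 2406 against 1717 and 1888. The arrays of the genotypes did not overlap, and the log2 ratio was 0.49, SE 0.18, adjusted p = 0.10 from limma. A further probe set of Psma5 gave 2351 and 2051 against 1064 and 1456 and was higher at adjusted p = 0.027 over all probe sets (log2 ratio 0.81), and a further dim one gave 0.53. Psma2, Psma3, Psma4, Psma6 and Psma7 had log2 ratios between 0.16 and 0.32 and did not pass the test. Of these, Psma4 alone had overlapping arrays, with 2501 and 3321 against 2313 and 2870.2. Psma6 gave 4194 and 4857 against 3150.3 and 4142, the lower FSP27-deficient array lying just above the higher wild-type array.

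In the beta ring, 3 of 7 genes were called higher, beside 5.79% of all genes, and 2 of the 3, Psmb5 and Psmb7, encode protease sites. Psmb5, the chymotrypsin-like site, gave 4686 and 4435 (FSP27-deficient) and 2221 and 2317 (wild-type). The duplicates lay close together and the genotypes far apart, from 2269 ± 68.1 to 4561 ± 178 (SD, n = 2 arrays each). This was 2.01-fold higher (SE 0.17 on the log2 scale, adjusted p = 0.0027 from limma). Psmb7, the trypsin-like site, gave 9820.0 and 10069.9 against 5128 and 5135, which is 1.94-fold higher (log2 ratio 0.95, SE 0.16, adjusted p = 0.0022). Psmb5 and Psmb7 each have 1 probe set and stayed past the threshold without each array in turn. Brown fat markers were higher and macrophage markers lower on the same arrays, and their part in the values of the core genes was not tested.

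Psmb6, the caspase-like site, gave 2783 and 4031 against 1993 and 3176, with overlapping arrays (log2 ratio 0.41, SE 0.24, adjusted p = 0.33 from limma). On each genotype its first replicate was the lower of the pair. Psmb3, a structural subunit of the beta ring, gave 5592 and 6996 against 3705 and 3972, with no overlap, and rose 1.64-fold (log2 ratio 0.70, SE 0.18, adjusted p = 0.021). Its call depended on the arrays: the adjusted p from limma rose to 0.060 without FSP27-deficient replicate 2, to 0.17 and 0.088 on leaving out replicates 1 and 2 of wild-type WAT, and to 0.063 after quantile normalization. The dimmer Psmb3 probe set gave 2580.5 and 2939 against 1532 and 2072 (log2 ratio 0.62, adjusted p = 0.072 over all probe sets). Psmb2, with 1667 and 2180.0 against 1449 and 1363, did not overlap but missed the threshold (log2 ratio 0.44, adjusted p = 0.20). Psmb4 (log2 ratio 0.11, adjusted p = 0.76) and Psmb1 (-0.09, adjusted p = 0.84) had overlapping arrays, and Psmb1 gave 2336 and 3572 against 2929.7 and 3234, its FSP27-deficient duplicates lying on either side of the wild-type ones.

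**Figure D2:**
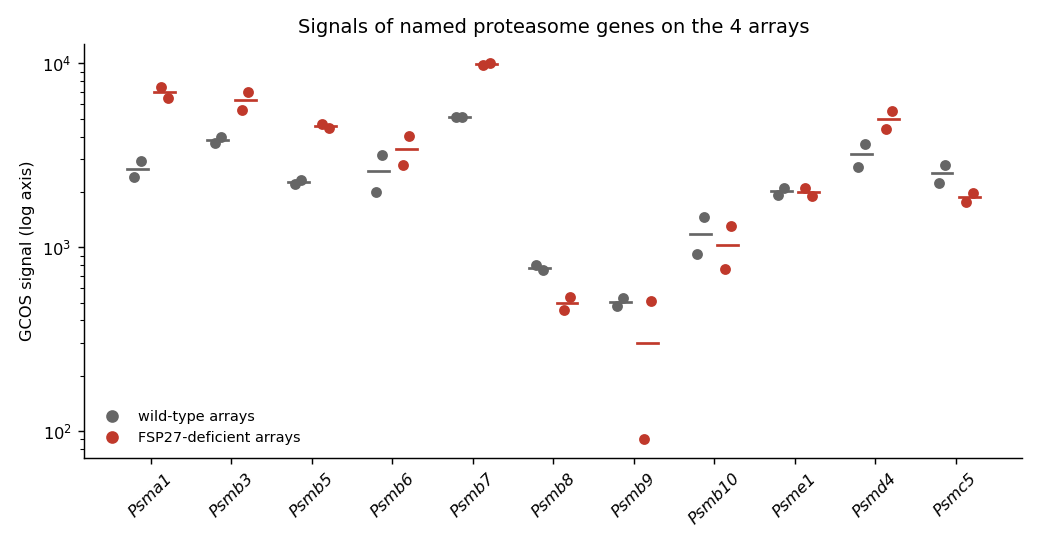
GCOS signal on a log axis for 11 proteasome genes, with dots for single arrays and bars for genotype means (grey, wild-type, and red, FSP27-deficient, n = 2 each). For Psmb7 the red dots, at 9820.0 and 10069.9, lie above the grey dots, at 5128 and 5135, and for Psmb9 a single red dot, at 90.4, lies far from the other 3.

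All 4 measured immunoproteasome genes had negative log2 ratios, as had 4847 of all 8522 genes tested. Psme1, at -0.01, lay above the median of all genes, -0.08. None of the 4 passed the test from limma (1, Psmb8, at an unadjusted p under 0.05). Psmb8, the inducible counterpart of Psmb5, gave 453 and 538 (FSP27-deficient) and 801 and 749 (wild-type). The arrays did not overlap, and the mean was 1.56-fold lower (log2 ratio -0.63, SE 0.22, adjusted p = 0.090 from limma, 95% interval -1.12 to -0.15). Psmb9, the counterpart of Psmb6, gave 90.4 and 511 against 478 and 529.7. FSP27-deficient replicate 1 stood far below the other 3 arrays, and the log2 ratio -1.13, SE 0.54, adjusted p = 0.21, became 0.02 without it (adjusted p = 0.97) and -2.29 without FSP27-deficient replicate 2 (adjusted p = 4.9e-04).

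Psmb10, the counterpart of Psmb7, gave 761 and 1299 against 919 and 1453, with the first replicate the lower of each genotype (log2 ratio -0.21, SE 0.28, adjusted p = 0.70 from limma). Psme1, a subunit of the interferon-induced activator, gave 2089 and 1909 against 1932 and 2103, with overlapping arrays (log2 ratio -0.01, SE 0.18, adjusted p = 0.98, 95% interval -0.41 to 0.38). The direction of Psme1 turned after centring each array on its median (0.06). The probe set that lists Psme2 also lists its retrocopy Psme2b and was not used. The median of the 4 genes was -0.42, against 0.44 for the 7 constitutive beta genes, 0.27 for the 7 alpha genes and -0.08 for all genes. Single arrays moved these medians, that of the immunoproteasome to -0.03 and that of the beta genes to 0.68 without FSP27-deficient replicate 1, and to -0.67 and 0.24 without FSP27-deficient replicate 2. The beta genes had a median of 0.74 without wild-type replicate 2.

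To set each inducible subunit against the subunit that it replaces, the difference of their log2 signals was taken within each array, in which any scaling of the whole array cancels apart from the added 16. Its absolute size also holds the sensitivity of the probes, so that only its change between genotypes is read. Psmb8 minus Psmb5 was -3.33 and -3.01 (FSP27-deficient) and -1.45 and -1.61 (wild-type). The FSP27-deficient values were both lower, and the change of -1.64 compares with a pooled SD of 0.18 between duplicates. Psmb9 minus Psmb6 was -4.72 and -2.94 against -2.02 and -2.55, a change of -1.54 with an SD of 0.93, and without FSP27-deficient replicate 1 the change was -0.65. Psmb10 minus Psmb7 was -3.66 and -2.94 against -2.46 and -1.81, a change of -1.17 with an SD of 0.49. In all 3 pairs compared, the FSP27-deficient values lay below the wild-type values. The rises of Psmb5 and Psmb7 were the larger part of the change in their pairs. The exact two-sided permutation test gave for each pair the smallest p that 4 arrays allow, 0.33, which misses 0.05.

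**Figure D3:**
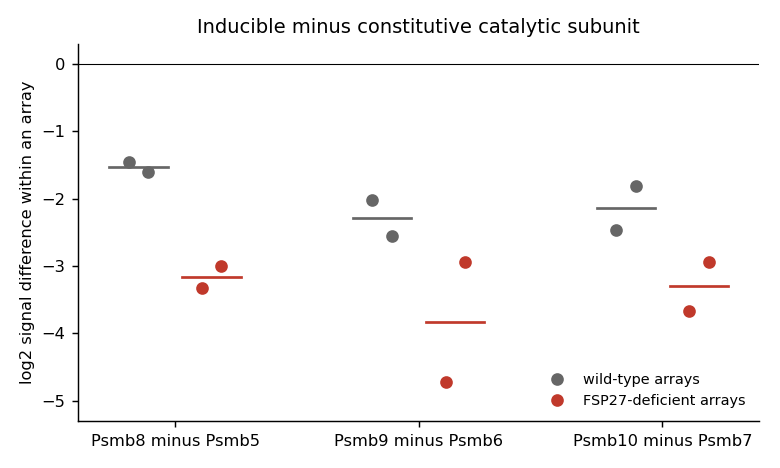
Difference of log2(signal + 16) between an inducible catalytic subunit of the immunoproteasome and its constitutive counterpart within each array (dots) with genotype means as bars (grey, wild-type, and red, FSP27-deficient, n = 2 each). Both red dots lie below both grey dots in each of the 3 pairs, with mean changes of -1.64, -1.54 and -1.17.

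Among genes of MHC class I loading 1 was called lower, and among those of the interferon-gamma pathway 2 were. Of 9 genes of MHC class I loading tested, 0 were higher and 1 was lower (11.1%, beside 6.51% of all genes), Tapbp, the tapasin that loads peptides, with 2927 and 2857 against 4742 and 5090.0 (log2 ratio -0.76, SE 0.17, adjusted p = 0.011 from limma). Tap1, the peptide transporter, gave 256 and 342 against 247 and 268 (log2 ratio 0.19, adjusted p = 0.74), and B2m, the light chain of class I, had a value of 0.05. Of 8 tested genes of the interferon-gamma pathway, 0 were higher and 2 were lower (beside the same 6.51%), the receptor chain Ifngr1 (1015 and 1408 against 1728 and 2824, log2 ratio -0.88, adjusted p = 0.040) and the guanylate binding protein Gbp3 (84.1 and 169 against 472 and 306, log2 ratio -1.54, adjusted p = 0.024). All 8 had a negative log2 ratio, with a median of -0.36, beside 4847 of 8522 genes and a median of -0.08 over all genes tested. Ifng itself was at 11.3 and 23.1 against 8.32 and 5.53, below the lower quartile of every array. The macrophage markers given above were lower in the same arrays, T cell markers summed to 713 and 335 against 235 and 254 over 6 genes with none bright enough to be tested, and of B cell markers Ighm, a heavy chain of antibodies, was higher (28052 and 22555 against 12190 and 13667) while Cd79a gave 15.1 and 58.8 against 155 and 48.8 and Cd79b and Ms4a1 lay under 222 on every array. The part of these cells in the values of the immunoproteasome genes was not tested.

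In the ATPase ring of the cap, limma called 0 of 6 genes (1, Psmc5, at an unadjusted p under 0.05) and the log2 ratios ran from -0.42 to 0.24, with a median of -0.10. Psmc5, an ATPase, had the lowest log2 ratio of these, with 1769 and 1979 (FSP27-deficient) and 2237 and 2813 (wild-type). Its arrays did not overlap, but the log2 ratio -0.42, SE 0.19, had an adjusted p = 0.20 from limma. Psmc2 did not overlap either, with 3059.9 and 3779 against 3857 and 4400.4 (log2 ratio -0.28, adjusted p = 0.38). Such arrays, with FSP27-deficient lower, were seen for 2 of the 6 ATPases, near the background of 31.4% of all genes. Psmc4 had the largest positive value among the ATPases, with 1676 and 1888 against 1250.3 and 1812 (log2 ratio 0.24, adjusted p = 0.55), and its other probe set had the opposite sign, with 517 and 778 against 1285 and 579 (-0.44, adjusted p = 0.48 over all probe sets). Psmc1, Psmc3 and Psmc6 had values of 0.11, -0.09 and -0.10 with overlapping arrays, Psmc1 for instance with 1926 and 2493 against 1862 and 2205. The direction of the ATPases as a class was not stable, with a median of 0.15 without FSP27-deficient replicate 1 and 0.10 without wild-type replicate 2.

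The 11 non-ATPase genes of the cap all had a positive log2 ratio, beside 43.1% of all genes. Their values ran from 0.06 to 0.64 with a median of 0.28, and 0 passed the test from limma. At an unadjusted p under 0.05 from limma there were 3 (27.3%), all higher, where the 25.3% of all genes counts both directions. Psmd4, a ubiquitin receptor of the cap, came nearest, with 4406 and 5531 (FSP27-deficient) and 2737 and 3655 (wild-type). The arrays did not overlap and the mean was 1.55-fold higher (log2 ratio 0.64, SE 0.20, adjusted p = 0.054 from limma). Both other probe sets of Psmd4 had the same direction, with 2516 and 2558 against 1757 and 1873 (log2 ratio 0.48, adjusted p = 0.12 over all probe sets) and 364 and 482 against 203 and 233 (0.90, adjusted p = 0.065). Over the mean of its 3 probe sets Psmd4 passed the threshold (log2 ratio 0.67, adjusted p = 0.046), as it did without FSP27-deficient replicate 1 (0.80, adjusted p = 0.015). It was further from it without FSP27-deficient replicate 2 (0.48, adjusted p = 0.15), without wild-type replicate 1 (0.43, adjusted p = 0.45) and after quantile normalization (0.50, adjusted p = 0.13).

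The arrays of the genotypes did not overlap, with FSP27-deficient higher, for 8 of the 11 non-ATPase genes, beside 22.7% of all genes. Beside Psmd4 these were Psmd1, Psmd2, Psmd3, Psmd6, Psmd8, Psmd12 and Psmd14. Psmd2, the large scaffold of the base, gave 4408 and 4582 against 3483 and 3538 (log2 ratio 0.35, adjusted p = 0.20 from limma), and Psmd14, the deubiquitinase of the lid, gave 3659.6 and 3136 against 2690.4 and 2871 (0.28, adjusted p = 0.36). Psmd7, Psmd11 and Psmd13 had overlapping arrays. Psmd7, a lid subunit, gave 1105 and 1577 against 1192 and 1029 (0.25, adjusted p = 0.54), Psmd13, another, gave 1369 and 1803 against 1014 and 1498 (0.35, adjusted p = 0.40), and Psmd11 had the smallest value (0.06), with 3328 and 2128 against 2305 and 2819. In the core as a whole, 10 of 14 genes had arrays apart with FSP27-deficient higher and 0 with it lower. In the cap these were 8 and 2 of 17, and over all genes 22.7% and 31.4%. Whether the core differed from the cap was not tested.

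Other activators and the inhibitor of the core had positive values that did not pass the test from limma, also without adjustment. Psme3, a nuclear activator, gave 925 and 587 against 477 and 615 (log2 ratio 0.43, SE 0.26, adjusted p = 0.34 from limma). Psme4, the activator PA200, and Psmf1, the inhibitor PI31, had values of 0.27 and 0.23, and Psmf1 gave 495 and 508 against 489.7 and 368, without overlap. The dimmest probe set of Psme3 gave 93.5 and 67.2 against 14.9 and 9.32, while another gave 357 and 155 against 379 and 179. Among the 7 assembly chaperones limma called 0 (1, Psmd5, at an unadjusted p under 0.05). Psmd5, which holds ATPases before the cap is built, had the highest log2 ratio of these, with 1045 and 1211 against 788 and 668, without overlap (log2 ratio 0.62, SE 0.21, adjusted p = 0.081). Psmd10, the chaperone gankyrin, gave 556 and 442 against 285 and 404 (0.53, adjusted p = 0.25). Psmg2, which helps to build the alpha ring, was lower by its brighter probe set, with 163 and 233 against 306 and 271 (log2 ratio -0.53, adjusted p = 0.36), and higher by the other, with 293 and 263 against 184 and 229.7 (0.41, adjusted p = 0.49 over all probe sets). Neither direction can therefore be given for Psmg2. Psmd9, Psmg1, Psmg3 and Psmg4 had values of 0.09, 0.35, 0.18 and -0.12. Psmc3ip and Psme3ip1 match the symbol rule but encode partner proteins and not subunits, and had values of 0.42 (102 and 192 against 152 and 65.6, adjusted p = 0.72) and -0.05 (514 and 705 against 534 and 728, adjusted p = 0.93).

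Probe sets of the same gene could be compared for 21 of the 48 genes. Of the 85 member probe sets 74 had a mean signal of at least 100, of which 5 were called higher and 0 lower when every probe set was tested on its own, beside a background of 5.06% higher and 5.59% lower. These were the brightest probe sets of Psma1, Psmb3, Psmb5 and Psmb7 and the second of Psma5. Among 19 genes with more than 1 tested probe set, all tested probe sets shared a sign for 13 and differed in sign for 6 (Psmc4, Psmd11, Psmd13, Psme3, Psmf1 and Psmg2). With dimmer probe sets included, Psma1, Psma6, Psmb1, Psmc1 and Psmd7 differed too. For Psmd13 the second probe set gave 571 and 462 against 582 and 648 (-0.25, where the brightest gave 0.35), and for Psmf1 the next brightest gave -0.04 and -0.61 where the brightest gave 0.23. The 6 probe sets of Psmd11 ran from -0.39 to 0.36.

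**Figure D4:**
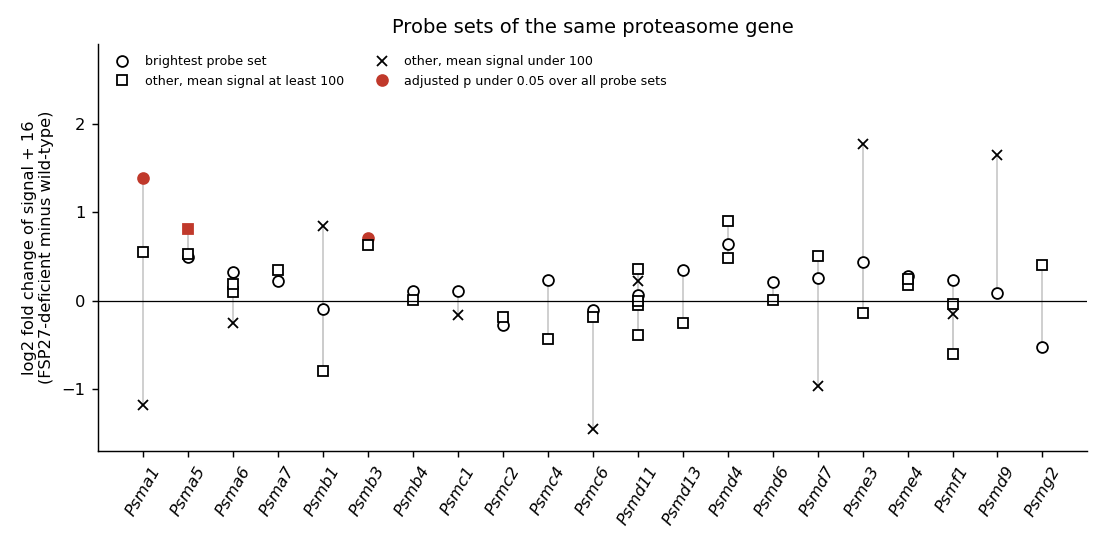
log2 ratio (FSP27-deficient minus wild-type, on signal + 16) of every probe set of the 21 proteasome genes with more than 1, with circles for the brightest probe set, squares for others with a mean signal of at least 100 and crosses for dimmer ones. Red marks an adjusted p under 0.05 over all probe sets, and the widest gaps, as in Psma1 and Psme3, involve dim probe sets.

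Genes that work beside the proteasome did not pass the test. Of 17 tested genes for associated and shuttle factors, limma called 0 in either direction (adjusted p under 0.05) and 3 (Rad23b, Ecpas and Ubqln2, 17.6% beside 25.3% of all genes) at an unadjusted p under 0.05, with a median of 0.06 and a range of -0.80 to 0.66. Named after their values were seen, Ecpas, a protein that binds core and cap, gave 915 and 682 against 475 and 514 (0.66, adjusted p = 0.091), and Ubqln2, a shuttle for ubiquitin-tagged proteins, gave 692 and 545 against 1364 and 863 (-0.80, adjusted p = 0.059). Both had arrays that did not overlap, as had 22.7% of all genes upward and 31.4% downward. Of the regulators of proteasome genes, Nfe2l1 gave 2037 and 2251 against 1914 and 1762, without overlap (log2 ratio 0.22, SE 0.18, adjusted p = 0.51), and Nfe2l2 and Ngly1 had values of 0.04 and -0.16. Genes of ubiquitin and of the activating enzyme were not analysed here.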

How the data were processed

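Total RNA of gonadal WAT from 5 male mice per genotype was pooled and hybridised in duplicate. The authors deposited linear GCOS intensity values of 22690 probe sets per array, whose scaling target and software version were not given in the sources used here. Medians were 164.8 to 192.8, 62.2% to 66.0% of probe sets reached a signal of 100, and the number of arrays limits the precision.

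Controls aside, GEO's platform annotation gave 1 symbol for 20380 probe sets and several for 691. It gave none for 1606, a count that includes some of the 64 controls, and all controls were left out. Tests used R 4.3.3 and limma 3.58.1 (eBayes with trend, pseudocount 16, 2 residual degrees of freedom, 12.1 in all), threshold 0.05. The replicate number was not used as a block, since no source says that it pairs the arrays. Figures were drawn with matplotlib 3.10.9. The steps were tested on simulated data. The members, classes and other gene lists were chosen with earlier results of these data known. Values by array are given for members past the threshold, immunoproteasome genes and their counterparts, the largest rise and fall of each class, members with probe sets of opposite sign and those not tested, and, chosen after their values were seen, for Psma4, Psma5, Psmb2, Psmc2, Psmd2, Psmd10, Psmd14 and genes of the other lists that did not pass the test. Alternatives were a pseudocount of 1 or 64, the low-signal filter left out or raised to 200, quantile normalization, median centring, probe sets of a gene averaged, each probe set on its own, no trend, the methods' test, both duplicates past the fold, the replicate block and each array left out, where the lone array is assumed to vary like the others.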

Additional observations from a re-analysis of the deposited data

How the results depend on the processing

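All 4 calls needed limma's trend of spread with signal. Without it limma called 0 proteasome genes, with 6 at an unadjusted p under 0.05, and 1 of all genes, and the test that the methods name, adjusted by Benjamini-Hochberg, gave 0, with 7 at an unadjusted p under 0.05 (14.9%, beside 15.4% of all genes), and 0 of all genes. Over all genes same-numbered arrays did not deviate together (correlation 0.07), but the median proteasome gene was lower in replicate 1 than in replicate 2 of both genotypes (log2 difference of -0.16 in FSP27-deficient and -0.12 in wild-type WAT). With the replicate number as a block, 6 proteasome genes were higher, with Psmd4 (adjusted p = 0.0068 from limma) and Psmd5 (adjusted p = 0.047) added, and 1, Psmb9, was lower (adjusted p = 0.027), beside 634 of all genes higher and 831 lower in place of 493 and 555. The count of proteasome genes called higher was 3 to 5 without each array in turn and that of genes called lower 0 to 1, and 3 to 5 were higher under the alternatives not named here. By the fold criterion the higher genes were 6 to 17 and the lower genes 1 to 5 without each array in turn, with 13 higher without FSP27-deficient replicate 1 and 17 without wild-type replicate 2. The lower genes by this criterion were 1 after quantile normalization and 1 after centring, 5 over every probe set and 0 with both duplicates past the fold.

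Without each array in turn, the median log2 ratio was 0.20 to 0.36 for the alpha ring, 0.24 to 0.74 for the beta ring, -0.67 to -0.03 for the immunoproteasome, -0.34 to 0.15 for the ATPases, 0.25 to 0.38 for the non-ATPases, 0.11 to 0.61 for the other activators and inhibitor, 0.030 to 0.24 for the chaperones and -0.13 to 0.50 for other matches of the symbol rule. Other values that moved past the spread between duplicates were 0.17 for the alpha ring and -1.43 for Psmb8 minus Psmb5 after quantile normalization, 0.36 for the non-ATPases after centring and 0.35 for the chaperones over the mean of probe sets. Without each array in turn the pairs ran from -1.80 to -1.47, from -2.43 to -0.65 and from -1.53 to -0.80 in the order given above. Among named genes that did not pass the test, direction turned on leaving out arrays for Psmb9 (-2.29 to 0.022), Psmb10 (-0.59 to 0.17), Psme1 (-0.078 to 0.051), Psmb1 (-0.40 to 0.21), Psmc1 (-0.073 to 0.30), Psmc4 (-0.027 to 0.50), Psmd7 (-0.0034 to 0.50), Psmd11 (-0.26 to 0.38), Psmc3ip (-0.10 to 0.94) and Psme3ip1 (-0.27 to 0.17). It also turned for Psme1 (0.064) and Psme3ip1 (0.026) after centring, for Psme3ip1 (0.058) after quantile normalization, and for Psmc4 (-0.099), Psmc1 (-0.026), Psmd7 (-0.071) and Psmf1 (-0.14) over the mean of probe sets. The cause of these changes was not tested.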
